A study of Mus musculus with 3 samples.

Results

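The genes described here encode the subunits of ATP-sensitive potassium (K-ATP) channels. They were chosen by name from the arrays' own gene annotation, updated through RefSeq accessions: Abcc9, Kcnj8, Abcc8 and Kcnj11. The choice was made with earlier results of these data known. These 4 genes were carried by 8 of the 41174 probes, and all 4 were among the 22043 features (genes and unnamed probes) tested; 7 of the 8 probes passed the filter on dim signal. The study hybridised mouse aorta RNA to 3 Agilent arrays, all on the same slide, with 2 dyes on each. The red dye Cy5 marked the sample labelled Plk1(+/-), a different one each time, and the green dye Cy3 marked a pool of 3 wild-type (WT) aortas, the same pool throughout. Animals of both genotypes were 3 to 5 months old and of 129/CD1 background. The comparison asks which aortic transcripts differ when 1 allele of Plk1, the gene of a mitotic kinase, is lost. The pool was a single control sample, so its own spread was not measured, and no array had the dyes exchanged, so dye and genotype cannot be told apart. The 3 Plk1(+/-) samples are called biological replicates in the labels, whose growth protocol describes embryonic stem cells although the tissue given is aorta.

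K-ATP channels couple the energy state of a cell to its membrane potential. They are built from pore-forming inward rectifier subunits (Kir6.1 from Kcnj8, Kir6.2 from Kcnj11) and sulphonylurea receptors of the ABCC family (SUR2 from Abcc9, SUR1 from Abcc8); intracellular ATP closes the pore, and magnesium-bound ADP acting on the receptor opens it. In vascular smooth muscle, Kir6.1 with a splice form of SUR2 is the main pairing, and its opening hyperpolarises the membrane and relaxes the vessel. Kir6.2 pairs with SUR2 in heart and skeletal muscle and with SUR1 in pancreatic beta cells and neurons. In the mouse genome each pore gene lies next to a receptor gene, Kcnj8 beside Abcc9 on chromosome 6 and Kcnj11 beside Abcc8 on chromosome 7, the chromosome of Plk1.

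Each probe was a 60-base oligonucleotide on the minus strand in the files' mm7 coordinates. A stretch of 30 bases of each is shown, 5′ to 3′, to identify what was measured. The capitals mark a run of 14 bases that the first and the third Abcc9 probes have in common, the longest run shared by probes of the same member gene. Probes of different member genes shared at most 7 bases in a row.
Abcc9 probe 1, chr6:142676908-142676967: gggcaaatTTCAGTGATAGGCAttgagatc
Abcc9 probe 2, chr6:142677172-142677231: ttatcagccaggcaatgactctgaactctg
Abcc9 probe 3, chr6:142677252-142677311: gcttcagtccTTCAGTGATAGGCAacctag
Kcnj8 probe 1, chr6:142653175-142653234: actgtgtcctgatgactgagagacaatccg
Kcnj8 probe 2, chr6:142652658-142652717: cacgggtcatcatgaatatgttcaaatcta
Abcc8 probe 1, chr7:42280740-42280748: gccatcctggagtttgacaaaccggagaag
Abcc8 probe 2, chr7:42280740-42280763: tttttcttcttatgcccaaacctctgggct
Kcnj11 probe 1, chr7:42273983-42274042: agaaaaagaaatattgggaagttcagcctg

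The file coordinates of the Abcc8 probes cover 9 and 24 positions, shorter than the probes themselves. All 3 Abcc9 probes are annotated to the same 4 RefSeq transcripts, so the array did not separate splice variants of the receptor. The position of the probes within exons was not analysed here.

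All ratios below are log2 ratios of the labelled sample over the pool, after background correction and intensity-dependent (loess) normalization within each array. The test was limma's moderated test of the mean ratio against 0 with Benjamini-Hochberg adjustment over all features. Over all features, 66.0% to 69.0% of probe spots in Cy3 and 77.0% to 80.8% in Cy5 were well above background. In limma 204 of 22043 features passed an adjusted p of 0.05, of which 196 were lower and 8 higher. Only 24 of the lower calls, and all 8 higher ones, were on features without a saturated spot. Plk1 itself read 0.10 ± 0.28 (SD, n = 3; limma adjusted p = 0.705), so its probe did not show the labelled loss; whether the probe lies in the interrupted part of the gene is not given in the sources used here.

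The K-ATP genes all read lower in the samples labelled Plk1(+/-) than in the pool, by modest amounts. The mean ratio was -0.78 for Abcc9, -0.43 for Abcc8, -0.41 for Kcnj11 and -0.33 for Kcnj8, and it was negative on all 3 arrays for 4 of 4 genes, as for 19.1% of all features. None of the 4 passed the adjusted test in limma (0 of 4, against 0.925% of all features in either direction and 0.889% lower). The 4 genes had no saturated spot, and most features called lower had one. Of the 21514 features without a saturated spot, 24 were called lower and 8 higher. At an unadjusted p under 0.05, 4 of 4 were lower and 0 higher, against 9.79% and 9.17% of all features. Taken probe by probe, 7 of 7 kept probes were negative on every array, against 19.6% of all kept probes. Lower at an unadjusted p under 0.05 were 7 of 7, against 9.92%, and 0 of 7 passed the adjusted limma test, against 0.662%. Probes of the same gene are repeat readings of it, and all arrays share the pool, so the probes are not independent. The genes were chosen with earlier results of these data known. The counts beside the shares of all features are therefore a description and do not test the set. The median ratio of all features was 0.03, 0.01 and 0.04 in samples 1, 2 and 3. The direction of Kcnj8 depended on the scaling, as given with that gene.

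**Figure D1:**
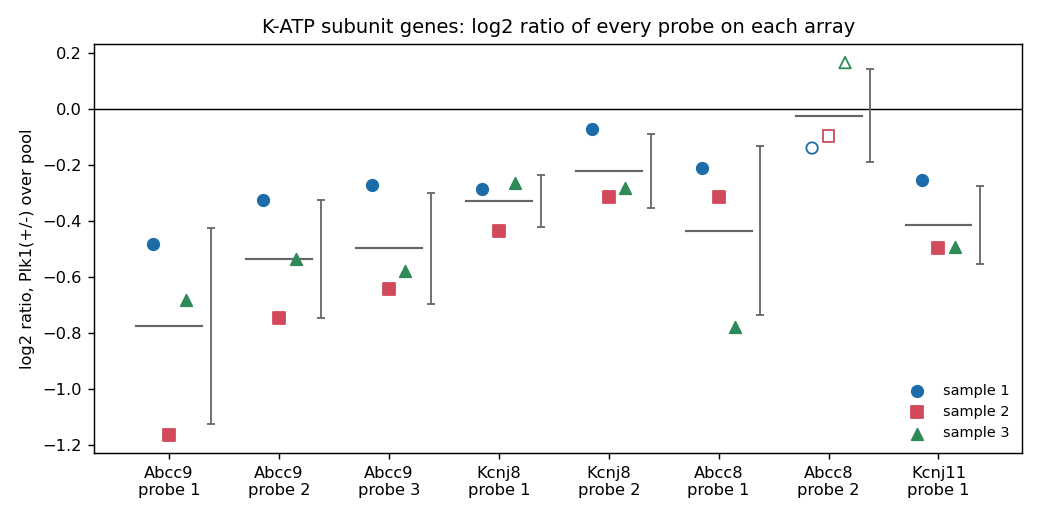
Log2 ratio of the labelled sample over the pool for the 8 probes of the K-ATP subunit genes, with a marker for each of the 3 samples, a grey line at the mean and a bar of 1 SD. The 7 kept probes lie below 0 in all samples, and Abcc9 probe 1 reaches -1.16 in sample 2; open markers show the Abcc8 probe that was not well above background.

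Abcc9 encodes SUR2, the regulatory subunit that binds channel-opening drugs and nucleotides in muscle K-ATP channels. Its brightest probe, probe 1, gave mean signals of 1147, 1601 and 1404 in the pool channel and 2024, 1762 and 2363 in the sample channel on arrays 1, 2 and 3. The raw sample signal was higher than the raw pool signal on all 3 arrays, as it was for every probe of the set; over all probes the median signal was 335 to 357 in Cy5 and 155 to 165 in Cy3. On array 2 the excess of Cy5 was smallest. After normalization the ratios of this probe were -0.48, -1.16 and -0.68 in samples 1, 2 and 3. Sample 2 was the lowest and sample 1 the nearest to 0. The mean was -0.78 ± 0.35 (SD, n = 3), a 1.71-fold lower level, with a 95% interval of -1.19 to -0.36 before any adjustment and a limma adjusted p of 0.158.

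The other Abcc9 probes gave the same order of samples. Probe 2 read -0.33, -0.75 and -0.54, a mean of -0.54 ± 0.21 (SD, n = 3; limma adjusted p = 0.157 with every probe tested). Probe 3 read -0.27, -0.64 and -0.58, a mean of -0.50 ± 0.20 (adjusted p = 0.163). Probes 2 and 3 were dimmer, with pool signals of 357 to 387 and 245 to 256, and their ratios were smaller in size than those of probe 1 on each array; the gap between the probes was 0.21, 0.52 and 0.15 on arrays 1, 2 and 3. In the deposited log ratios of the scanner software, which subtract background without an added offset, the probes lay closer together, at -0.49, -1.15 and -0.70 for probe 1, -0.49, -0.93 and -0.74 for probe 2 and -0.35, -0.84 and -0.80 for probe 3. Averaging the 3 probes gave -0.60. With the arrays centred on their median in place of loess, Abcc9 read -0.39.

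Kcnj8 encodes Kir6.1, the pore subunit of the vascular channel. Its probe 1 was the brightest of the set, with signals of 5794, 7237 and 6793 in the pool channel and 12645, 13994 and 15903 in the sample channel. Its ratios were -0.28, -0.43 and -0.26 in samples 1, 2 and 3, so sample 2 was again the lowest and the other samples were nearly alike. The mean was -0.33 ± 0.09 (SD, n = 3), 1.25-fold lower, with a 95% interval of -0.52 to -0.13 before adjustment and a limma adjusted p of 0.176. Probe 2 read -0.07, -0.31 and -0.28, a mean of -0.22 ± 0.13 (adjusted p = 0.260 with every probe tested). The direction of Kcnj8 did not hold under median centring, where it read 0.15 (adjusted p = 0.200) while the median of all features moved from 0.04 to 0.23; relative to that median it was at -0.07. Under the same centring Abcc9, Abcc8 and Kcnj11 stood at -0.61, -0.56 and -0.79 relative to that median.

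The receptor and pore genes of the vascular pair were then compared within each array. The Abcc9 ratio was below the Kcnj8 ratio by 0.20, 0.73 and 0.42 on arrays 1, 2 and 3 (probe 1 of each gene), a mean difference of -0.45 ± 0.27 (SD, n = 3). An exact two-sided sign-flip permutation test gave p = 0.25, the smallest p that 3 arrays allow (0.5 after Benjamini-Hochberg adjustment over the 2 pairs compared). On arrays 2 and 3 the ranges of the 3 Abcc9 probes (-1.16 to -0.64 and -0.68 to -0.54) and the 2 Kcnj8 probes (-0.43 to -0.31 and -0.28 to -0.26) did not overlap. On array 1 they did, at -0.48 to -0.27 and -0.28 to -0.07. Probes of a gene are repeat readings of it, so these ranges describe the probes and do not test the difference. These are differences between ratios; levels of different probes were not compared.

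**Figure D2:**
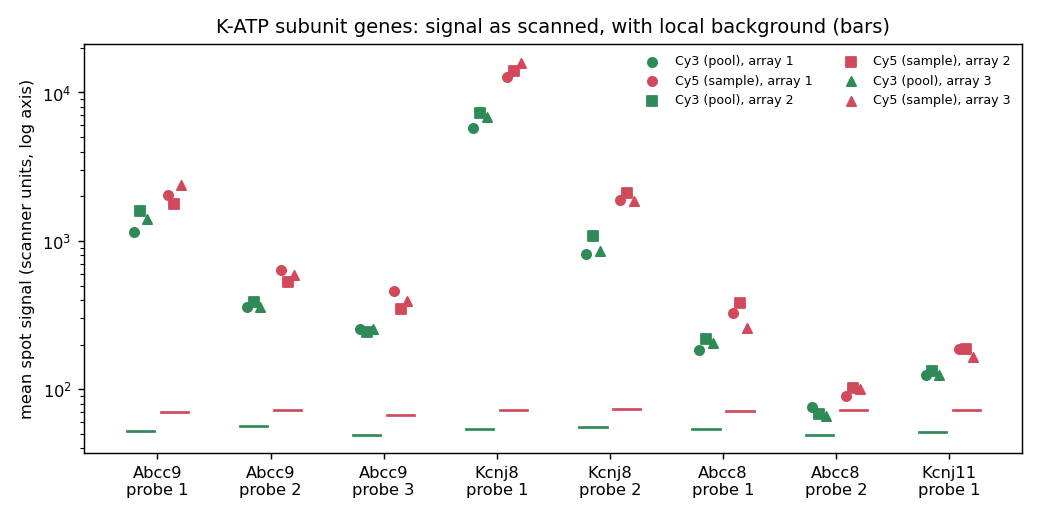
Mean spot signal as scanned, in scanner units on a log axis, for the 8 probes, with green markers for Cy3 (the pool), red markers for Cy5 (the sample) and short bars at the mean local background. Kcnj8 probe 1 lies far above background (5794 to 15903), Kcnj11 probe 1 close to it (125 to 188), and Abcc8 probe 2 was not well above background on any array.

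The remaining subunits belong to the channels of heart, skeletal muscle, neurons and endocrine cells. Abcc8 encodes SUR1, the target of sulphonylurea drugs in beta cells. Its probe 1 gave signals of 184, 220 and 206 in the pool channel and 325, 381 and 260 in the sample channel, and ratios of -0.21, -0.31 and -0.78. Sample 3 was the lowest, unlike Abcc9 and Kcnj8. The mean was -0.43 ± 0.30 (SD, n = 3), 1.35-fold lower, with a 95% interval of -0.80 to -0.07 before adjustment and a limma adjusted p of 0.229. Without sample 3 it was -0.26, and in the scanner software's processed signals -0.67. Abcc8 probe 2 read 65.5 to 75.9 in Cy3 and 90.6 to 102 in Cy5 and was not well above background in either dye on any of the 3 arrays. Its ratios, -0.14, -0.10 and 0.17, are those of a spot at background level and were not tested.

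Kcnj11 encodes Kir6.2, the pore subunit of the beta cell, heart and skeletal muscle channels. Its probe was dim, with signals of 125, 133 and 125 in the pool channel against a local background of at most 53.5, and of 188, 187 and 166 in the sample channel against 70.5 to 75.5. The scanner software marked it as well above background in Cy3 and in Cy5 on each of the arrays. The ratios were -0.25, -0.50 and -0.49, so samples 2 and 3 were alike and sample 1 was nearer to 0. The mean was -0.41 ± 0.14 (SD, n = 3), 1.33-fold lower, with a 95% interval of -0.64 to -0.19 before adjustment and a limma adjusted p of 0.165. The size of the ratio moved with the processing: the scanner software's processed signals, which differ in both background and dye steps, gave -0.43, -0.90 and -1.06, a mean of -0.80 (limma adjusted p = 0.184). The mean was -0.37 with no background correction and -0.59 with a normexp offset of 10. Median centring gave -0.57 with an adjusted p of 0.0224, a setting in which 9761 of 22043 features were called.

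Abcc8 and Kcnj11 had no constant order across the arrays. The Abcc8 ratio minus the Kcnj11 ratio was 0.04, 0.18 and -0.29 on arrays 1, 2 and 3, a mean of -0.02 ± 0.24 (SD, n = 3; exact two-sided sign-flip permutation p = 1, also after adjustment). Its sign turned under 5 alternatives given in the closing section.

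**Figure D3:**
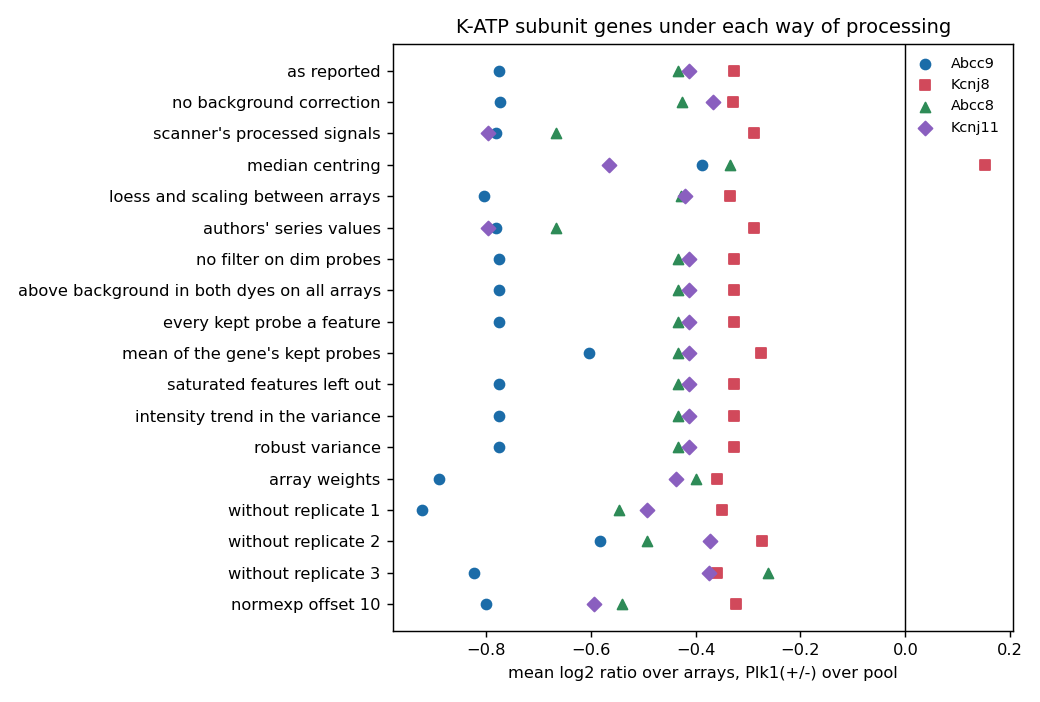
Mean log2 ratio of each K-ATP subunit gene (horizontal axis) under each way of processing the arrays (rows), with a marker for each gene. Abcc9, Abcc8 and Kcnj11 lie below 0 in every row, Kcnj8 crosses to 0.15 under median centring, and Kcnj11 ranges from -0.37 to -0.80.

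Markers of the tissue's cell types differed between the arrays too. In bulk RNA, fewer cells of a type and less RNA per cell cannot be told apart. Of 9 smooth muscle markers all 9 were measured, and the 6 without a saturated spot were all negative in all samples, as were 17.9% of all unsaturated features. Their medians were -0.30, -1.41 and -0.95, and the list's summed normalized signal was 311000 to 368000 in the pool and 127000 to 170000 in the samples (saturated Acta2, Cnn1 and Tagln included). Sample 2 was the lowest in this list, as it was for Abcc9 and Kcnj8. Markers of pericytes, the mural cells in which Kcnj8 and Abcc9 are also prominent, were measured for 9 of 10 genes, of which 5 were negative in all samples. Their medians were -0.24, -0.56 and -0.31, with summed signals of 55800 to 60200 in the pool and 39000 to 48400 in the samples. The median of the pericyte genes' mean ratios, -0.32, turned to 0.14 with median centring, and that of the smooth muscle genes, -0.97, stayed negative at -0.56. By sample, the smooth muscle medians under that centring were 0.12, -0.99 and -0.44 in samples 1, 2 and 3, so sample 1 turned positive. Sample 2 was the lowest in other lists too. Over all features the 5th percentile of the ratios was -0.455, -0.651 and -0.548 in samples 1, 2 and 3, also lowest in sample 2. Adventitial fibroblast markers, all 8 measured, had medians of -0.18, -0.42 and -0.31 over the 7 without a saturated spot, 6 of them negative in all samples. The list's summed signals were 162000 to 202000 in the pool and 109000 to 124000 in the samples (saturated Dcn included). The median of the 7 genes' mean ratios, -0.32, turned to 0.10 with median centring. Red cell markers, 4 of 5 measured, had medians of -0.49, -1.30 and -1.02 over the 3 without a saturated spot, all negative in all samples. Summed signals of this list were 128000 to 133000 in the pool and 48700 to 54400 in the samples (saturated Hba-a1 included). Slc4a1, the red cell anion exchanger gene, passed the test at -1.29 ± 0.08 (SD, n = 3, limma adjusted p = 0.0103). With saturated features left out of the adjustment, 0 of 21514 features passed (lowest limma adjusted p = 0.162). The part of these 4 lists in the K-ATP ratios was not tested. Endothelium markers, all 10 measured and 0 saturated, had medians of 0.05, -0.06 and -0.20, lowest in sample 3. Of the 10, 3 were negative in all samples. The median of their mean ratios, -0.05, turned to 0.35 with median centring. Their part in the K-ATP ratios was not tested either.

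Skeletal muscle markers, all 10 measured, had medians of -0.72, -0.94 and -2.82 over the 8 without a saturated spot, with summed signals of 307000 to 375000 in the pool and 40600 to 191000 in the samples (saturated Myh2 and Myh4 included). They were lowest in sample 3, as Abcc8 was. Cardiac markers, all 7 measured, had medians of -1.96, 0.15 and -2.34 and summed signals of 29300 to 40500 and 15200 to 28200. Sympathetic neuron markers, 8 measured, had medians of 1.44, 0.71 and -0.36 over the 7 without a saturated spot, again lowest in sample 3, and summed signals of 33200 to 35500 and 28700 to 82400 with saturated Uchl1 included. The part of these cells in the Abcc8 and Kcnj11 ratios was not tested. The brown fat genes Ucp1, Cidea and Cox8b had saturated spots, and their ratios are not given; the part of fat tissue in the K-ATP ratios was not tested.

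**Figure D4:**
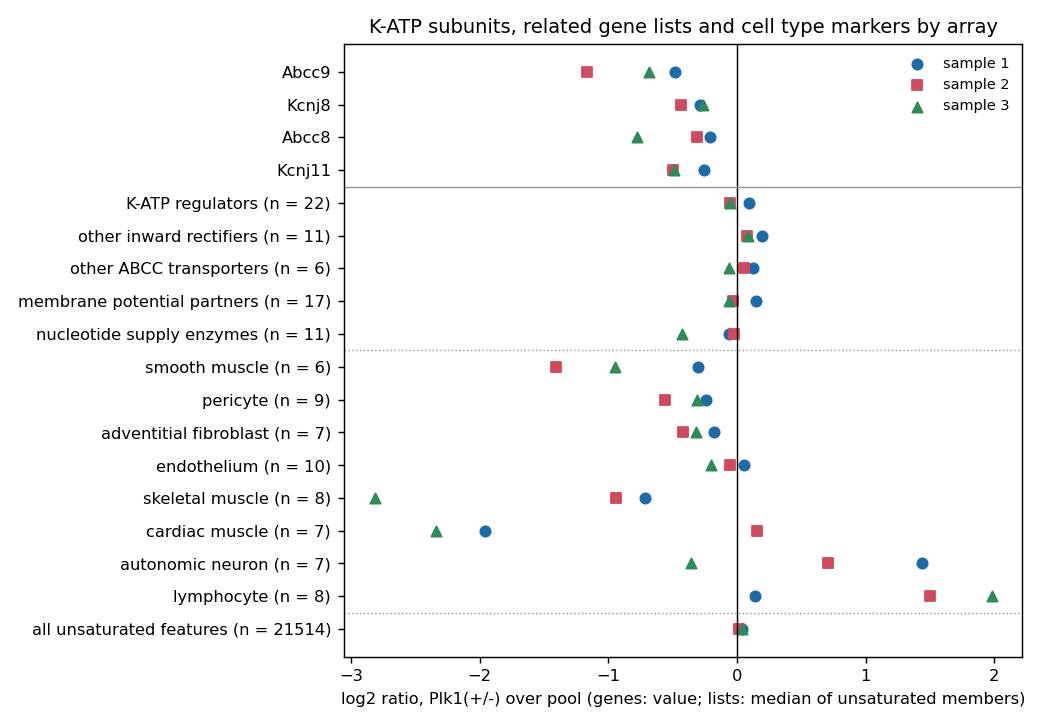
Log2 ratio of each K-ATP subunit gene, and the median over unsaturated members of each related gene list and marker list, by sample (horizontal axis, labelled sample over pool; n is the number of members). The K-ATP genes lie between -1.16 and -0.21, the related channel lists lie near 0, and smooth muscle and skeletal muscle markers reach -1.41 in sample 2 and -2.82 in sample 3.

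Genes that regulate K-ATP channels had no common direction. The list held vasodilator receptors, protein kinase A and C subunits, calcineurin, caveolar proteins and anchoring partners; 24 of 25 were tested. In limma 1 of 24 was lower at an adjusted p under 0.05, against 0.889% of all features, and 0 were higher. The lower one was the caveolar coat gene Cavin1, on a saturated probe. Among the 22 unsaturated members, 4 were lower and 1 higher at an unadjusted p under 0.05, against 8.49% and 9.33% of all unsaturated features, and the list's medians were 0.10, -0.06 and -0.05, close to those of all unsaturated features, 0.04, 0.01 and 0.04. Ramp1, a subunit of the receptor for the vasodilator CGRP, read -0.49, -1.25 and -0.74, with a mean of -0.83 ± 0.38 (SD, n = 3; adjusted p = 0.161). Adora2b, an adenosine receptor gene, read -0.34 ± 0.09 (adjusted p = 0.173), and Prkg1, the cGMP-dependent kinase gene, -0.55 ± 0.28 (adjusted p = 0.181). Prkce, a protein kinase C isoform, read 0.42 ± 0.13 (adjusted p = 0.158). The mean ratios of these 4 kept their sign under the 5 other scalings tried. Ramp1 and Prkg1 were lowest in sample 2, like Abcc9.

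The relatives of the pore and receptor genes had no call at an adjusted p under 0.05 in limma, against 0.925% of all features. Several of their signs depended on the scaling. Of 13 further inward rectifier genes, 11 were tested, 0 passed the adjusted test in limma, and 0 of 11 read below 0 in all samples. The list's medians were 0.19, 0.08 and 0.08. It was a dim list, with summed normalized signals of 1990 to 2270 in the pool and 2240 to 3030 in the samples. The part of signal level in these ratios was not tested. Of the 11, 6 read above 0 in all samples, a count for which no share over all features was taken. At an unadjusted p under 0.05, 2 were higher and 0 lower. Of all unsaturated features, 17.9% read below 0 in all samples, 9.33% were higher and 8.49% lower. The counts are small, and no test compared them with these shares. Kcnj9, a G protein-gated channel gene, read 0.62 ± 0.19 (SD, n = 3; limma adjusted p = 0.120), the glial channel gene Kcnj10 0.73 ± 0.64 (0.256), Kcnj15 0.33 ± 0.33 (0.307) and the renal channel gene Kcnj1 0.19 ± 0.19 (0.370), the last turning to -0.17 with median centring and reaching 0.84 with processed signals. With median centring Kcnj2, Kcnj3, Kcnj6 and Kcnj12 also turned negative, Kcnj6 to -0.53, and the median of the list's mean ratios went from 0.13 to 0.01. Of 9 further ABCC family genes, 6 were tested and 0 passed, with medians of 0.12, 0.06 and -0.06, and 2 were higher and 0 lower at an unadjusted p under 0.05. Abcc4, a cyclic nucleotide exporter gene, read 0.29 ± 0.02 (adjusted p = 0.176) and Abcc2 0.31 ± 0.17 (0.225), while Abcc1 read -0.08 ± 0.03 (0.516) and the chloride channel gene Cftr -0.08 ± 0.13 (0.593); Abcc2 turned to -0.04 and Abcc1 to 0.32 with median centring, Cftr read -0.43 with processed signals and -0.59 with median centring, and the median of the ABCC genes' mean ratios went from 0.01 to -0.07 with processed signals. No test compared these families with the K-ATP genes.

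Other channels that set the membrane potential of smooth muscle were tested for 17 of 19 genes. None passed the adjusted test in limma (0 of 17, against 0.925% of all features). At an unadjusted p under 0.05, 3 were lower and 1 higher, against 8.49% and 9.33% of all unsaturated features. Medians by sample were 0.15, -0.03 and -0.06. Kcnmb1, the smooth muscle subunit of the large-conductance calcium-activated potassium channel, read -0.19, -0.98 and -0.53, a mean of -0.57 ± 0.40 (SD, n = 3; adjusted p = 0.223), with sample 2 lowest. The L-type calcium channel genes Cacna1c and Cacnb2 read -0.28 ± 0.16 (adjusted p = 0.231) and -0.25 ± 0.06 (0.204). Kcnn4, the intermediate-conductance channel gene, was positive in all samples, at 0.19, 0.66 and 0.95, a mean of 0.60 ± 0.38 (adjusted p = 0.205). Lymphocytes also express Kcnn4, and lymphocyte markers (8 of 8 measured) had medians of 0.14 in sample 1 and 1.98 in sample 3, with sample 2 between them, and summed signals of 5120 to 5690 in the pool and 6020 to 25300 in the samples; their part in that ratio was not tested.

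Enzymes that supply or buffer the nucleotides sensed by the channel were tested for 14 of 15 genes. In limma 2 of 14 were lower at an adjusted p under 0.05, against 0.889% of all features. Both were lactate dehydrogenase genes, Ldha and Ldhb, on saturated probes and given without a fold. Of the 11 without a saturated spot, 4 were lower and 0 higher at an unadjusted p under 0.05, against 8.49% and 9.33% of all unsaturated features. These were the creatine kinase genes Ckmt2 (-2.14 ± 1.49, SD, n = 3; adjusted p = 0.207) and Ckm (-1.79 ± 1.38; 0.227), the adenylate kinase gene Ak1 (-0.50 ± 0.42; 0.254), which read -0.05 with median centring, and the AMP-activated kinase gene Prkaa2 (-0.35 ± 0.29; 0.263), which turned to 0.01 with median centring. All 4 were lowest in sample 3, at -3.85, -3.37, -0.97 and -0.64, as the skeletal muscle markers were, and Ckm is itself in that marker list. The medians of the enzyme list were -0.06, -0.02 and -0.43; the median of its genes' mean ratios, -0.13, turned to 0.29 with median centring.

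The genes next to the K-ATP pairs on chromosomes 6 and 7 were described in the same way. Of the 5 protein-coding genes on each side of the Kcnj8 and Abcc9 pair, in the order of the GRCm38.p6 gene table, 9 of 10 were tested. Of the 9, 1 was called lower in limma, against 0.889% of all features: Ldhb, next to Kcnj8, on a saturated probe. The 7 without a saturated spot had means between -0.0003 (Cmas) and 0.50 (St8sia1, limma adjusted p = 0.175), 0 of 7 were negative on every array, and St8sia1 and C2cd5 were higher at an unadjusted p under 0.05 (17.9% and 9.33% of all unsaturated features). Around the Kcnj11 and Abcc8 pair, 8 of 10 were tested and 0 were called in limma, also 0 at an unadjusted p under 0.05, with means between -0.15 (Emp3) and 0.13 (Sergef) and 0 of 8 negative on every array. C2cd5 (0.31), Recql (0.21), Ush1c (0.12), Etnk1 (0.08), Golt1b (0.09), Spx (0.03), Myod1 (0.09), Nomo1 (0.04), Otog (0.03), Kcnc1 (0.02) and Tmem143 (-0.01) made up the other unsaturated neighbours. The signs of Spx, Cmas, Tmem143, Emp3, Nomo1, Otog and Kcnc1 turned with the scaling. Gys2 had a saturated spot.

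**Figure D5:**
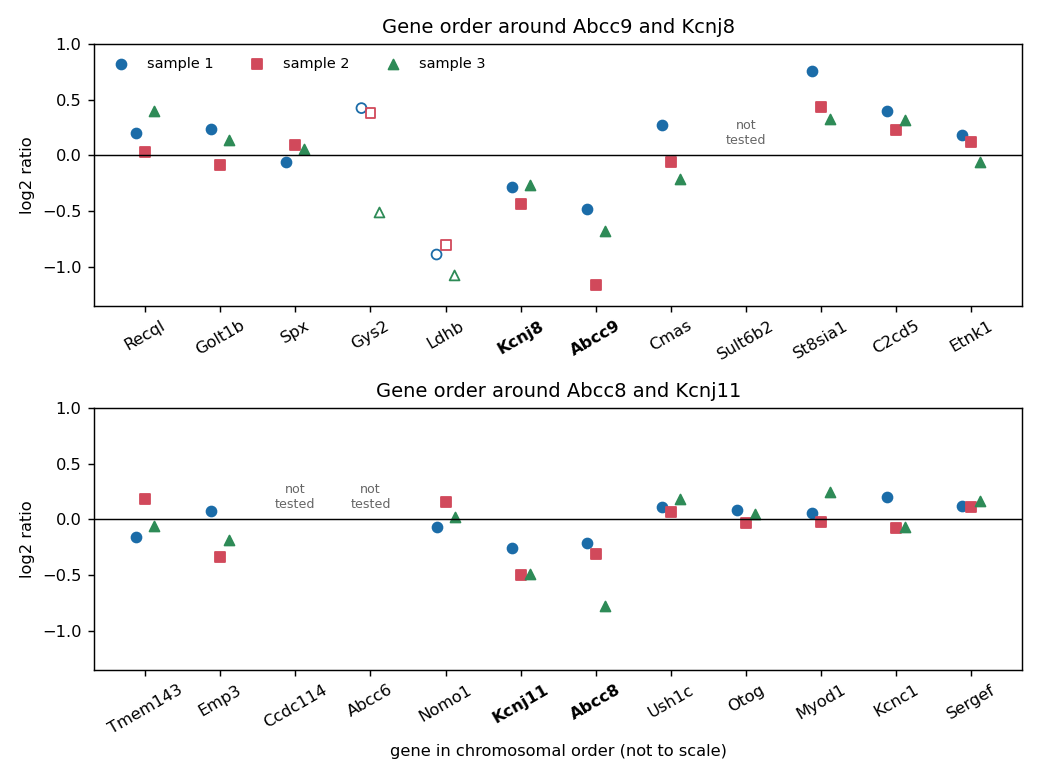
Log2 ratio by sample for the genes on each side of the Kcnj8 and Abcc9 pair (top) and the Kcnj11 and Abcc8 pair (bottom), in chromosomal order and not to scale. The K-ATP genes lie below 0 in all samples and their unsaturated neighbours scatter around 0 or above; open markers are genes with a saturated spot.

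The promoters of Abcc9 and Kcnj8, the neighbouring genes of the vascular channel, are shown so that their sequences can be compared; those of Abcc8 and Kcnj11 were not used here. These are the 250 bases before the RefSeq start of each gene, in GRCm38.p6, on the minus strand and written 5′ to 3′ along the gene; the first lies at chr6:142702275-142702524 and the second at chr6:142571615-142571864. Capitals mark the part of a match to the MEF2 consensus, the motif of a muscle transcription factor family, that falls in this window.
Abcc9: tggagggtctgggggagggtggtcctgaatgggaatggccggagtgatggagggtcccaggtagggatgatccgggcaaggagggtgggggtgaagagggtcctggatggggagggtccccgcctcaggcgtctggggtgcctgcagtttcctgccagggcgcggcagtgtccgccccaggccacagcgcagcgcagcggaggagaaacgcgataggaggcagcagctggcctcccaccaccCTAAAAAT
Kcnj8: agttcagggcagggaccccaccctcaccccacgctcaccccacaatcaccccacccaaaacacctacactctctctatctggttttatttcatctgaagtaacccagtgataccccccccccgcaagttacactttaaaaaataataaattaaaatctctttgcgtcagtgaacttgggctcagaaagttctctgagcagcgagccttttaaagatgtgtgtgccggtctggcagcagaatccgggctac

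The motifs were searched on both strands of the 250 bases before and 50 after the start. The MEF2 match of Abcc9, CTAAAAATAA, had 8 of its 10 bases before the annotated start; 3.19% of 32851 promoters held such a match, and Kcnj8 had 0. Neither gene had a match to the CArG box, the motif of serum response factor, which 1.63% of promoters held. Each had 1 E-box (CANNTG), found in 72.3% of promoters, Abcc9 had 1 GC box (GGGCGG; 35.7%), and neither had a TATA box (TATAAA; 13.6%). Base composition differed, at 66.8% G and C for Abcc9 and 49.2% for Kcnj8. A match describes the letters only.

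The genes whose 3 ratios lay nearest to those of each member were named by Euclidean distance over the 3 arrays, out of 15843 other named genes without a saturated spot. Nearest to Abcc9 were Mmp17 (distance 0.04), Adamts2 (0.06) and Tceal3 (0.06); Mmp17 read -0.47, -1.16 and -0.64. Nearest to Kcnj8 were Pwwp3b (0.03), P4hb (0.04) and Cort (0.04). Nearest to Abcc8 were Ctla2a (0.05), the muscle phosphofructokinase gene Pfkm (0.07) and Tnfrsf19 (0.07), and nearest to Kcnj11 were Chpf (0.02), the smoothelin gene Smtn (0.03), a smooth muscle marker, and Ktn1 (0.04). The distances rest on 3 arrays that share the pool and are a description.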

How the data were processed

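The authors read spot intensity with Agilent's Feature Extraction software, version 9.5.3.1 per the file headers; its mean signals, taken before background subtraction and dye normalization, were the starting point. The deposited log10 ratio compares processed Cy5 with processed Cy3, per the file headers. The authors' deposited series values are log2, for 28817 of 41174 probes; against the scanner ratio in log2 their slopes were 0.997, 1.00 and 0.998 and their medians -0.02, -0.0052 and -0.03, which gives their scale and direction; how they were centred is not given in the sources used here.

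Mean signals were corrected with normexp (offset 50) and loess-normalized with control spots at weight 0 (limma 3.58.1, R 4.3.3). Control spots and outlier spots (136, 109 and 100) were left out. A probe was kept where Cy3 or Cy5 was well above background on 2 or more of the 3 arrays, and the brightest kept probe stood for a gene. Ratios were tested against 0 by limma's moderated test (two-sided), adjusted by Benjamini-Hochberg over 22043 features; the number of arrays limits the precision. Names were updated through the GRCm38.p6 gene table (22951 probes by accession, 6659 by current symbol, 3109 by synonym, 8455 as in the files). Promoters are RefSeq's.

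Members and lists were chosen with earlier results of these data known. Named genes were all members, the 4 unsaturated members of each related list with the smallest p, the tested neighbours and the 3 nearest patterns per member. Alternatives changed the background step, normalization, filter, probe choice, variance model and arrays.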

Additional observations from a re-analysis of the deposited data

How the results depend on the processing

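Over 17 alternatives, Abcc9, Abcc8 and Kcnj11 stayed below 0 in all 17, with means of -0.92 to -0.39, -0.67 to -0.26 and -0.80 to -0.37, and limma adjusted p-values of 0.100 to 0.502, 0.115 to 0.566 and 0.0224 to 0.555. Kcnj8 was below 0 in 16 of 17, from -0.36 to 0.15, with adjusted p-values of 0.115 to 0.566; median centring turned it to 0.15. Median centring also brought Kcnj11 past the threshold, at -0.57. The 17 were not independent checks of sign. Changing the dim-probe filter, testing every probe or leaving out saturated features could not move a member's mean. Nor could the trend and robust variance models. The authors' series values repeated the means of the processed signals. Averaging probes could not move Abcc8 or Kcnj11, with 1 kept probe each. The Abcc9 minus Kcnj8 difference ran from -0.57 to -0.31 over 13 alternatives. The Abcc8 minus Kcnj11 difference turned to 0.13 with the scanner's processed signals and with the authors' deposited series values, to 0.23 with median centring and to 0.055 with a normexp offset of 10, an alternative chosen after seeing the data; leaving out 1 sample gave -0.12 to 0.11, the latter without sample 3. The count of called features was 116 with processed signals, 121 with the offset of 10 and 9761 with median centring (73.3% higher, against 3.92%); the cause was not tested. Leaving out 1 sample gave 0 to 175 calls; the 175 without sample 1 were 57 higher and 118 lower (32.6% higher). In limma the count was 0 without sample 2 and 0 without sample 3, with 1983 and 3095 features at an unadjusted p under 0.05, and 0 of 21514 with saturated features left out, with 3806. No paired analysis was possible because the arrays form 1 group against a common pool. The slide could not be used as a block, since all arrays lay on 1 slide. Signal over background limits Kcnj11 most, and Abcc8 probe 2 was at background level.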
